A study of Mus musculus with 4 samples.

Results

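The genes Twist1, Twist2, Msx1, Msx2, Prrx1, Scx, Dlx5, Atoh8 and Hand2 encode transcription factors that were grouped as factors of undifferentiated mesenchyme. They were taken by their symbols from probe sets annotated to exactly 1 gene. All 9 were found, each by 1 probe set, among 19938 genes measured. The cells were ATDC5, an established mouse chondroprogenitor line, in 2 groups of 2 samples. In the day 15 group the basal medium was supplemented with insulin, transferrin and selenite for 15 days, and in the day 0 group the cells were kept undifferentiated. The basal medium of DMEM/F12 with 5% fetal bovine serum and ascorbic acid was common to the 2 groups. No group was cultured for 15 days without the supplement, so time in culture, the supplement and differentiation cannot be told apart. All samples came from the same line. Nothing in the labels says that the 2 samples of a day were grown separately, so the spread behind the p-values may be technical.

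Twist1, Twist2, Scx, Atoh8 and Hand2 belong to the basic helix-loop-helix (bHLH) factors, which bind DNA as dimers, usually with a widely expressed E protein, at short sequences called E-boxes. Id proteins bind bHLH partners without binding DNA and so keep the dimers from forming. Msx1, Msx2, Prrx1 and Dlx5 are homeobox factors, which bind AT-rich sites through a homeodomain. Several of these factors are known to respond to bone morphogenetic protein (BMP) signalling in skeletal mesenchyme, and Twist and Msx factors are known to hold back differentiation of skeletal precursors.

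Atoh8, Twist2 and Msx2 were lower at day 15, and the other 6 factors did not pass the test. Atoh8 was 5.93-fold lower, Twist2 2.45-fold lower and Msx2 2.16-fold lower than at day 0. The 95% intervals of the other 6 differences all included 0. The promoters of the 3 factors that fell are shown with those of Twist1 and Msx1, the close relatives of Twist2 and Msx2, because in each of these pairs of relatives 1 gene was called and the other was not. The sequences are RefSeq's, build GRCm38.p6, 5′ to 3′ on the gene's strand, and run from 250 bases before to 50 bases after the annotated start. Capitals mark E-boxes (CANNTG) and homeodomain sites (TAATTA).
Atoh8 (chr6:72235528-72235827, minus strand): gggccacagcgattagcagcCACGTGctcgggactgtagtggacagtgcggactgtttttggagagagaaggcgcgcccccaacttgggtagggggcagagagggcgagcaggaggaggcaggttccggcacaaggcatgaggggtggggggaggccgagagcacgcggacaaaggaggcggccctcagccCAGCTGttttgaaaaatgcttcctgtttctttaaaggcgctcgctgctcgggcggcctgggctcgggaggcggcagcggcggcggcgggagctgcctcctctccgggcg
Twist2 (chr1:91801211-91801510, plus strand): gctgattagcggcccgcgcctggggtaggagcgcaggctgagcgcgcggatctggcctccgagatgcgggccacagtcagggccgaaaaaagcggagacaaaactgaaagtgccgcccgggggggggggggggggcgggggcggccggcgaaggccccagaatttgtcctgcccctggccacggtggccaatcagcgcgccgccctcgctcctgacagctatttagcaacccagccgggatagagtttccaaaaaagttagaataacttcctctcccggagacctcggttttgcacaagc
Twist1 (chr12:33957421-33957720, plus strand): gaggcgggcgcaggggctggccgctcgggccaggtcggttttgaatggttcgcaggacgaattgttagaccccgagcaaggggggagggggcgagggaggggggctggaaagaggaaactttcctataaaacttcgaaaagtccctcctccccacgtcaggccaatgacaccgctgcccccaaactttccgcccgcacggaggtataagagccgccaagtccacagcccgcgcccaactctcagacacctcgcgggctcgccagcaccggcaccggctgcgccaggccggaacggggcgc
Msx2 (chr13:53472731-53473030, minus strand): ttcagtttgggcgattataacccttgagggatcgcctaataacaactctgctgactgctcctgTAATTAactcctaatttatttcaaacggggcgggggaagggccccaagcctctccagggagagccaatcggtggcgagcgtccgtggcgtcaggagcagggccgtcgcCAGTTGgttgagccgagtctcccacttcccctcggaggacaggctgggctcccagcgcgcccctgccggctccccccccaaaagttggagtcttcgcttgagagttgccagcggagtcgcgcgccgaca
Msx1 (chr5:37824536-37824835, minus strand): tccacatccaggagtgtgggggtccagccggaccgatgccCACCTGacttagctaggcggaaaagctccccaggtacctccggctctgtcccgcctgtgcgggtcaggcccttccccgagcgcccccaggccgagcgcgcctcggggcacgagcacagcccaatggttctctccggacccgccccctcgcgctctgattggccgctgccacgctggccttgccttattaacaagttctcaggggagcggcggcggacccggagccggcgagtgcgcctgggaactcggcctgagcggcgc

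The promoters were searched on both strands for the bHLH E-box CANNTG, and for its form CATATG, whose matches count in the E-box search too. They were also searched for TAATTG, a homeodomain site, for TAATTA, a homeodomain site too, and for the BMP Smad site GGCGCC. Of the 9 factors, 7 had a promoter in the table. The Atoh8 window held 2 E-boxes, at 230 and 59 bases before the start (positions −230 and −59). The Msx2 window held 1 E-box at −79 and TAATTA at −187. The Msx1 window held 1 E-box at −210, and the windows of Twist1 and Twist2 held none of these letters. Among the other 2 windows, that of Prrx1 held TAATTA at −173, and that of Hand2 held 2 E-boxes, both homeodomain sites and the Smad site. An E-box was thus present in 4 of 7 windows, against 72.3% of all 32851 promoters in the table. TAATTA was present in 3 of 7 windows, against 5.29% of all promoters. TAATTG was present in 1 of 7 windows, against 8% of all promoters, and the Smad site in 1 of 7, against 11.9%. The E-box form CATATG was in none of the 7, against 3.91%. By these letters the 3 factors that fell had no motif in common.

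Levels are given as log2 of the intensity plus 1, after quantile normalization, with replicate 1 before replicate 2. Heights of different probe sets are not comparable, so genes are compared only by their differences between days. SE stands for limma's moderated standard error, and SD for the standard deviation of the 2 arrays of a day. A gene was called where limma's Benjamini-Hochberg adjusted p over all 19938 genes was below 0.05. By that rule 1.72% of all genes were called, 1.3% as higher and 0.411% as lower at day 15. In samples of whole cultures, fewer cells that express a gene and less RNA per cell cannot be told apart.

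**Figure D1:**
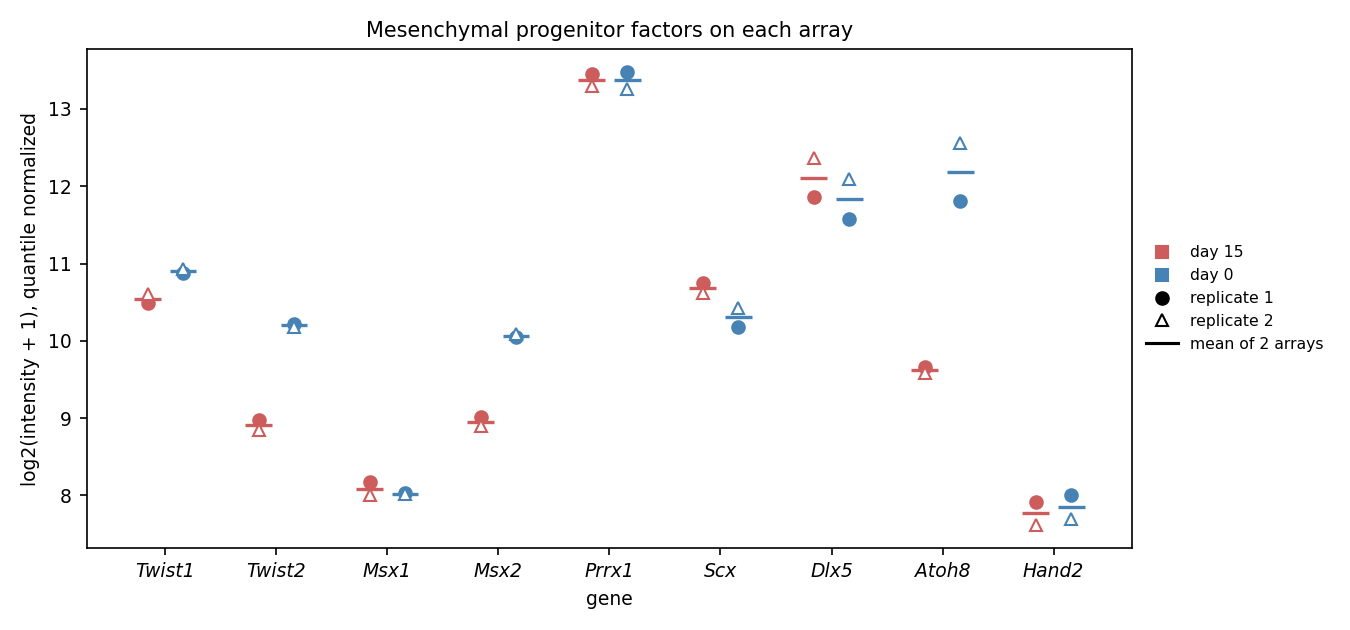
Level of each of the 9 factors on each array, as log2 of intensity plus 1 after quantile normalization (vertical axis), by gene (horizontal axis). Red marks stand for day 15 and blue for day 0, circles for replicate 1, triangles for replicate 2, and bars for the mean of 2 arrays. For Atoh8, Twist2 and Msx2 both day 15 arrays lie more than 1 log2 below both day 0 arrays. Heights of different genes are not comparable.

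Among the bHLH factors, Atoh8 showed the lowest difference. Atoh8 is a relative of the atonal factors and a known BMP target. Its level was 9.66 and 9.58 on the day 15 arrays, against 11.81 and 12.56 on the day 0 arrays. In deposited intensities these were 811 and 791 at day 15, against 3570 and 6009 at day 0. The groups did not overlap, the day 15 arrays lay close together, and the day 0 arrays were 0.75 log2 apart (day 0 SD 0.53, n = 2, against 0.06 at day 15). Atoh8 differed by −2.57 ± 0.27 log2 (SE, limma adjusted p = 0.0155), the 10th lowest difference of the 19938 genes. The difference was −2.15 between the replicate 1 arrays and −2.98 between the replicate 2 arrays. Atoh8 was still called without either day 0 array (limma adjusted p = 0.00529 and 0.0153), but not without day 15 replicate 1 (0.0619) or day 15 replicate 2 (0.0586).

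Twist2, also called Dermo1, is a bHLH factor of dermis and perichondrial mesenchyme. It was at 8.97 and 8.84 on the day 15 arrays, against 10.21 and 10.18 on the day 0 arrays. The arrays of each day differed by no more than 0.13 log2 and the days did not overlap. The deposited intensities were 493 and 495 at day 15, against 1173 and 1138 at day 0. The difference was −1.29 ± 0.16 log2 (SE, limma adjusted p = 0.0272), and it was −1.24 between the replicate 1 arrays and −1.34 between the replicate 2 arrays. With any 1 of the 4 arrays left out Twist2 missed the threshold (limma adjusted p 0.0916 to 0.0949), while its difference stayed between −1.34 and −1.25.

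Twist1, the paralog known for its role in cranial sutures and limb mesenchyme, was at 10.49 and 10.61 at day 15, against 10.87 and 10.93 at day 0. The days did not overlap, with both day 15 arrays lower, as for 17.8% of all genes. Twist1 was not called, at a difference of −0.35 ± 0.16 log2 (SE, limma adjusted p = 0.494, 95% interval −0.76 to 0.05). The Twist2 level minus the Twist1 level was −1.51 and −1.76 on the day 15 arrays, against −0.66 and −0.75 on the day 0 arrays. Both day 15 arrays thus showed less Twist2 relative to Twist1 than either day 0 array. On the day means this contrast was 0.94 log2 lower at day 15. An exact two-sided permutation test over the 4 arrays gave p = 0.333, the smallest that 2 arrays against 2 allow.

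Scx, or scleraxis, marks tendon and ligament progenitors. It was at 10.74 and 10.62 at day 15, against 10.18 and 10.43 at day 0. Both day 15 arrays were higher, as for 22.3% of all genes, by 0.38 ± 0.18 log2 (SE), which did not pass (limma adjusted p = 0.505, 95% interval −0.06 to 0.82). The difference was 0.57 between the replicate 1 arrays and 0.19 between the replicate 2 arrays. Hand2, a bHLH factor of limb and branchial arch patterning, was at 7.92 and 7.61 at day 15, against 8.00 and 7.70 at day 0. Its days overlapped, and its difference was −0.08 ± 0.20 log2 (SE, limma adjusted p = 0.964, 95% interval −0.58 to 0.42). The deposited intensities of Hand2 were 209 to 229 at day 15 and 214 to 240 at day 0. The medians of all probe sets on the 4 arrays were 232 to 267. No detection call was used, so whether Hand2 lay above background is not known.

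Among the homeobox factors Msx2 fell and Msx1, Prrx1 and Dlx5 were not called. Msx2, a BMP-responsive factor of skull and limb mesenchyme, was at 9.01 and 8.90 on the day 15 arrays, against 10.05 and 10.08 on the day 0 arrays. The arrays of each day lay within 0.11 log2 of each other and the days did not overlap. In deposited intensities Msx2 was at 506 and 511 at day 15, against 1044 and 1062 at day 0. The difference was −1.11 ± 0.16 log2 (SE, limma adjusted p = 0.0396), and it was −1.04 between the replicate 1 arrays and −1.18 between the replicate 2 arrays. Msx2 was not called without any 1 of the 4 arrays (limma adjusted p 0.125 to 0.159), on the deposited scaling (0.0507), with median centring (0.0537) or with an intensity trend and robust variance estimates (0.0588). Its difference stayed between −1.16 and −1.05 in these fits.

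Msx1, the paralog known from tooth and palate development, was at 8.17 and 8.00 at day 15, against 8.03 and 8.01 at day 0. Its days overlapped and the difference was 0.07 ± 0.17 log2 (SE, limma adjusted p = 0.968, 95% interval −0.35 to 0.48), with a sign that turned under other settings. The deposited intensities of Msx1 were 276 and 276 at day 15, against 246 and 263 at day 0, again near the medians of all probe sets. The Msx2 level minus the Msx1 level was 0.84 and 0.90 on the day 15 arrays, against 2.02 and 2.07 on the day 0 arrays. On the day means this contrast was 1.18 log2 smaller at day 15 (−1.18), with no overlap. No detection call was used, so Msx1 may lie at background, and the contrast may then mostly restate the fall of Msx2. The exact two-sided permutation test again gave its smallest p, 0.333. Adjusted over the 2 paralog pairs compared, each p was 0.333.

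Prrx1, a factor of limb bud and craniofacial mesenchyme, was at 13.45 and 13.29 at day 15, against 13.48 and 13.26 at day 0. The arrays interleaved, and the difference was 0.00 ± 0.18 log2 (SE, limma adjusted p = 0.999) with a 95% interval of −0.44 to 0.44. The deposited intensities of Prrx1 were 11040 and 10087 at day 15, against 11298 and 9832 at day 0. The largest deposited value of any probe set was 23103, and whether the signal of Prrx1 was near a ceiling was not tested. Dlx5, a factor of osteoblast and chondrocyte differentiation, was at 11.86 and 12.37 at day 15, against 11.58 and 12.09 at day 0. Replicate 2 was higher than replicate 1 on both days and the days overlapped. The difference was 0.28 ± 0.27 log2 (SE, limma adjusted p = 0.832, 95% interval −0.38 to 0.93), and it was 0.28 between the replicate 1 arrays and 0.27 between the replicate 2 arrays. With 1 array left out it ranged from 0.02 to 0.54 log2, depending on which array.

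Of the 9 factors, 3 were called lower and none higher, against 0.411% and 1.3% of all genes. The median difference was −0.08 log2, against 0.02 over all genes tested. Among 5 bHLH factors the differences ran from −2.57 to 0.38, and among 4 homeobox factors from −1.11 to 0.28. The unadjusted p was below 0.05 for the same 3 factors, while 12.2% of all genes had such a p. When all 35512 probe sets were tested together, named or not, none of the 9 was called (limma adjusted p = 0.104 for Atoh8, 0.113 for Twist2 and 0.149 for Msx2).

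**Figure D2:**
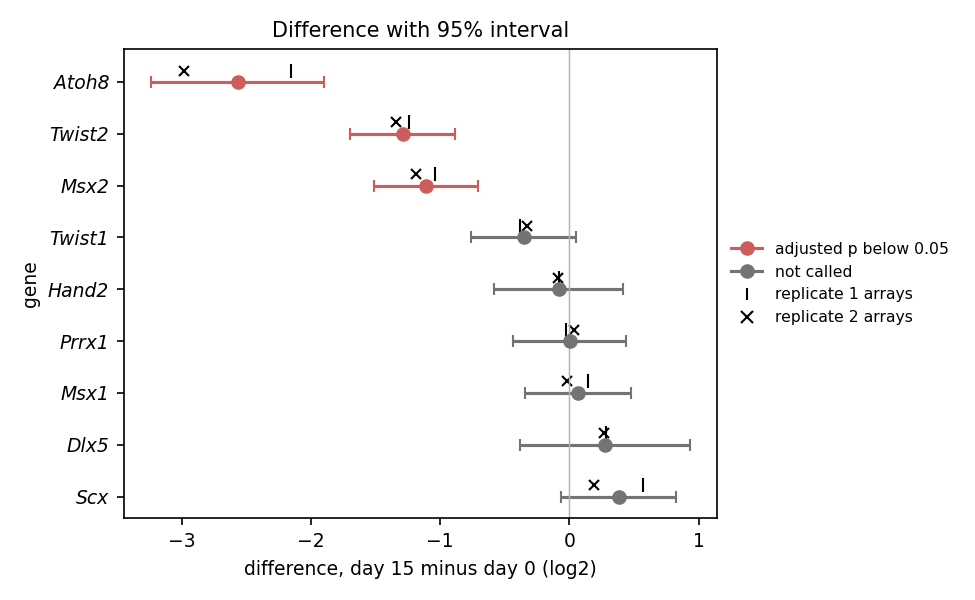
Difference of each factor between day 15 and day 0 in log2 (horizontal axis), by gene (vertical axis). Dots and bars give the estimate and its 95% interval from limma, red where the adjusted p was below 0.05, and the small marks above give the difference between the replicate 1 arrays (bar) and between the replicate 2 arrays (cross). Atoh8 was at −2.57, Twist2 at −1.29 and Msx2 at −1.11, and the intervals of the other 6 factors include 0.

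Across the 4 arrays, the genes with the most similar profiles to each called factor were taken by Euclidean distance, after centring each gene on its own mean. With 4 arrays on 2 days such a likeness mostly reflects the size of the difference. For Twist2 they were Hey1, a bHLH repressor of the Notch pathway (distance 0.10), Taf4b, a subunit of the TFIID complex (0.12), and Nrg1, an epidermal growth factor family ligand (0.12). The differences of these genes were −1.25, −1.27 and −1.23 log2. For Msx2 they were Mrvi1 (0.05), Snord16a, a small nucleolar RNA (0.10), and Cited2, a cofactor that binds CBP and p300 (0.11), with differences of −1.14, −1.07 and −1.05 log2. For Atoh8 the distances were larger, at 0.30 for the potassium channel subunit Kcnf1, 0.32 for the kinase Styk1 and 0.34 for the serine protease Prss46, and the differences were −2.75, −2.49 and −2.43 log2.

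The dimer partners of the bHLH factors and the Id inhibitors were compared in the same fit. None of the 7 was called by limma, and Id1 and Id4 had an unadjusted p below 0.05. The E proteins Tcf3, Tcf4 and Tcf12 differed by −0.08, 0.24 and 0.23 log2. Id1 was at 10.87 and 11.44 at day 15, against 11.72 and 12.16 at day 0, a difference of −0.78 ± 0.26 log2 (SE, limma adjusted p = 0.31). Id3 was at 11.78 and 11.95 at day 15, against 12.15 and 12.62 at day 0 (−0.52 log2, limma adjusted p = 0.431). Id2 differed by 0.26 and Id4 by −0.47 log2. The days did not overlap for Id1, Id3 and Id4, which were lower at day 15 (3 of 7, against 17.8% of all genes), and for Tcf4 and Tcf12, which were higher (2 of 7, against 22.3%). The median difference of this list was −0.08 log2.

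Of 21 other measured bHLH factors, Bhlhe41 rose, Hey1 fell and 19 were not called, with a median difference of −0.03 log2. Over all genes, 1.3% were called higher and 0.411% lower. The days did not overlap for 3 that were higher (22.3% of all genes) and 4 that were lower (17.8%). Limma's unadjusted p was below 0.05 for 4, against 12.2% of all genes. Bhlhe41, a repressor linked to the circadian clock, was at 10.66 and 10.84 at day 15, against 9.11 and 9.29 at day 0. It rose by 1.54 ± 0.18 log2 (SE, limma adjusted p = 0.019). Its relative Bhlhe40 was at 12.05 and 11.99 at day 15, against 10.95 and 11.19 at day 0, and did not pass (limma adjusted p = 0.081). Hey1 was at 7.46 and 7.22 at day 15, against 8.59 and 8.60 at day 0 (limma adjusted p = 0.0344). These levels were below the median level of all genes, 8.72, and no detection call was used. Hey2, a relative of Hey1, was at 7.49 and 7.16 at day 15, against 8.28 and 8.93 at day 0. Its days did not overlap, but it was not called (−1.28 log2, limma adjusted p = 0.112). Hand1, the paralog of Hand2, differed by −0.11 log2. Bhlhe41 missed the threshold without day 0 replicate 1 (limma adjusted p = 0.0645), day 15 replicate 1 (0.0619) or day 15 replicate 2 (0.0714), and Hey1 without any 1 of the 4 arrays (0.0885 to 0.123).

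None of 30 other homeobox factors of mesenchyme was called by limma over all genes. An unadjusted p below 0.05 was found for 10, against 12.2% of all genes. Of these 7 were higher at day 15 (Dlx4, Shox2, Meis1, Meis2, Meis3, Irx5 and Mkx, by 0.49 to 0.75 log2) and 3 lower (Dlx1, Dlx2 and En1). The days did not overlap for 11 that were higher (22.3% of all genes) and 5 that were lower (17.8%). The largest differences were those of Dlx2 and Dlx1, which are next to each other in the gene table of assembly GRCm38.p6, as are Dlx5 and Dlx6. Dlx2 was at 9.85 and 9.92 at day 15, against 10.87 and 11.58 at day 0 (−1.34 ± 0.26 log2, SE, limma adjusted p = 0.0949). Dlx1 was at 9.77 and 9.42 at day 15, against 10.67 and 10.83 at day 0 (−1.15 ± 0.19 log2, SE, limma adjusted p = 0.0606). Neither overlapped between days. Dlx2 was called without day 0 replicate 1 (−1.69 log2, limma adjusted p = 0.0319), and Dlx1 when only genes at or over the median level were tested (0.0432). Dlx6, the neighbour of Dlx5, was at 10.31 and 10.72 at day 15, against 10.59 and 10.40 at day 0 (0.02 log2, limma adjusted p = 0.993), and its days overlapped, as did those of Dlx5. Prrx2, the paralog of Prrx1, differed by −0.26 log2 (limma adjusted p = 0.692). The list had a median difference of 0.09 log2.

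Of 27 other transcription factors of mesenchymal progenitors none was called by limma. Only Tbx3 had an unadjusted p below 0.05 (−0.64 log2, limma adjusted p = 0.232), while 12.2% of all genes had such a p. The days did not overlap for 10 that were lower (17.8% of all genes) and 3 that were higher (22.3%). The largest differences were 0.82 ± 0.36 log2 for Ebf1, known from adipogenic and stromal progenitors, and −0.78 ± 0.32 for Gli3, a hedgehog pathway factor of limb patterning (SE, limma adjusted p = 0.461 and 0.419). Gli3 was at 10.50 and 11.46 at day 15, against 11.73 and 11.79 at day 0. The median difference was −0.18 log2.

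Genes that respond to BMP signalling, to which Msx2 and Atoh8 are known to belong, held 4 that fell and 1 that rose of 10 measured. Over all genes, 0.411% were called lower and 1.3% higher. The median difference of this list was −0.80 log2, against 0.02 over all genes. Those that fell were Smad9, a BMP receptor-regulated Smad, Smad7 and Smad6, which inhibit the receptors' signalling, and Hey1. The same Hey1 call is counted among the other bHLH factors. Smad9 was at 8.76 and 8.99 at day 15, against 10.57 and 11.30 at day 0 (−2.07 ± 0.28 log2, SE, limma adjusted p = 0.0305). Smad7 was at 9.69 and 9.94 at day 15, against 11.23 and 11.98 at day 0 (limma adjusted p = 0.0492), and Smad6 was at 10.02 and 10.43 at day 15, against 11.59 and 11.80 at day 0 (limma adjusted p = 0.0364). On these 3 Smads and on Atoh8, day 0 replicate 2 was the highest array. Bambi, a decoy receptor, rose by 1.23 ± 0.20 log2 (SE, limma adjusted p = 0.0498). The list had been chosen with earlier results of these samples known, so its direction is no independent evidence. In limma fits without 1 array, 2 of these genes were called without day 0 replicate 1, 1 without day 0 replicate 2, and none without day 15 replicate 1 or day 15 replicate 2, and 3 were called on the deposited scaling.

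Of 14 tendon genes, listed because Scx marks that lineage, Fmod rose and 13 were not called. Over all genes, 1.3% were called higher and 0.411% lower. The days did not overlap for 7 that were higher (22.3% of all genes) and 0 that were lower (17.8%). Limma's unadjusted p was below 0.05 for 5, all higher, against 12.2% of all genes. Fmod, the collagen-binding proteoglycan fibromodulin, was at 11.89 and 12.38 at day 15, against 7.94 and 9.06 at day 0 (limma adjusted p = 0.0163), and missed the threshold without day 15 replicate 2 (0.059). Dcn, the proteoglycan decorin, was at 13.65 and 13.47 at day 15, against 8.10 and 11.27 at day 0, with its day 0 arrays far apart, and was not called (limma adjusted p = 0.164). Tnmd, the tendon marker tenomodulin, differed by 0.01 log2 and Mkx, a tendon homeobox factor, by 0.60 (limma adjusted p = 0.997 and 0.238). Of 9 measured osteoblast genes, listed because Dlx5, Msx2 and Twist factors act in that lineage, Ibsp rose and 8 were not called. The share called higher over all genes was again 1.3%. The days did not overlap for 4 that were higher (22.3% of all genes) and 0 that were lower (17.8%). Limma's unadjusted p was below 0.05 for 2, both higher, against 12.2% of all genes. Ibsp, the bone sialoprotein, was at 13.66 and 13.73 at day 15, against 8.27 and 8.41 at day 0 (limma adjusted p = 0.000606). Phex, a peptidase of mineralizing cells, was at 11.28 and 9.87 at day 15, against 8.32 and 7.74 at day 0 (limma adjusted p = 0.083). Sp7, an osteoblast transcription factor, differed by 0.81 log2 (limma adjusted p = 0.436). The median differences were 0.20 log2 for the tendon list and 0.14 for the osteoblast list. These lists share genes with others. Comp is a tendon gene and a chondrocyte marker here, and Col1a1 is in the tendon, osteoblast and fibroblast lists. Which lineage the rises of Fmod and Ibsp belong to was not tested.

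**Figure D3:**
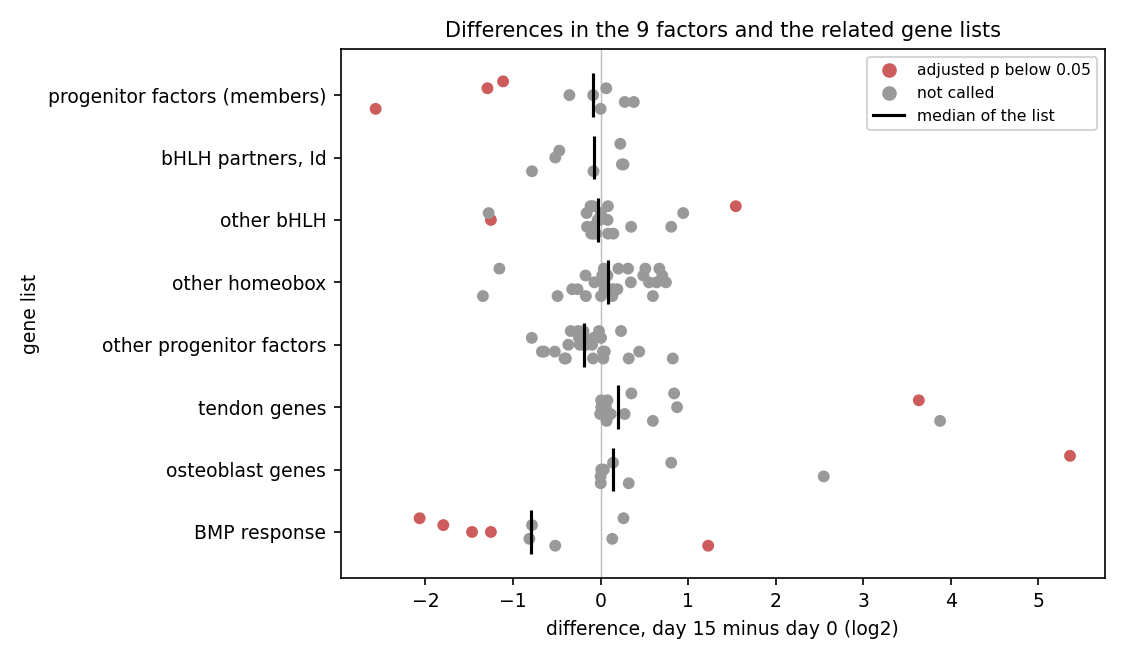
Difference between day 15 and day 0 in log2 (horizontal axis) for the 9 factors and the genes of 7 related lists (vertical axis). Each dot is a gene, red where limma's adjusted p was below 0.05, and the black line is the list's median; vertical offsets within a list carry no value. Called dots lie at −2.57, −1.29 and −1.11 for the 9 factors, and in this fit of all 4 arrays none is called among the bHLH partners, the other homeobox factors and the other progenitor factors.

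The labelled cell type was set against marker genes. Of 7 chondrocyte markers 4 rose (Col2a1, Acan, Hapln1 and Matn1), against 1.3% of all genes. All 7 were higher on both day 15 arrays, against 22.3% of all genes. None of the adipocyte (4), skeletal muscle (5), endothelium (4) or fibroblast and mesenchyme (5) markers was called by limma. The summed intensity of the adipocyte markers was 2187 and 2243 at day 15, against 3520 and 4107 at day 0, and 3 of the 4 were lower on both day 15 arrays (17.8% of all genes). Pparg, the regulator of fat cell formation, was at 10.61 and 10.60 at day 15, against 11.47 and 11.68 at day 0 (−0.97 log2, limma adjusted p = 0.0695). Fabp4, a fatty acid binding protein of fat cells, differed by −0.25 log2. It was at 6.60 and 6.86 at day 15, against 6.87 and 7.10 at day 0, below the median level of all genes, 8.72. Pparg was the brightest of the 4 on every array and made up most of the summed adipocyte intensity. This sum moved down with Atoh8, Twist2 and Msx2, and its part in their differences was not tested. Of the other lists, the largest differences were −0.47 log2 for Actc1 and 0.17 for Des in muscle, 0.17 for Pecam1 and 0.14 for Kdr in endothelium, and 1.13 for Pdgfra and −0.17 for Thy1 in mesenchyme.

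Of the 6 macrophage markers 5 were higher in replicate 1 than in replicate 2 on both days, and Adgre1 was lower. None of them was called by limma between days. The summed intensity of the 6 was 7899 on replicate 1 and 2433 on replicate 2 at day 15, against 6668 and 1327 at day 0. C1qb, the complement subunit, was at 11.11 and 5.80 at day 15, against 11.36 and 6.09 at day 0, and Cd68, a lysosomal protein, was at 10.66 and 9.24 at day 15, against 9.41 and 8.10 at day 0. Lyz2, a lysozyme, was at 11.07 and 10.38 at day 15, against 10.19 and 8.88 at day 0, so its days did not overlap (1.20 log2, limma adjusted p = 0.383). The differences of Twist2 (−1.24 and −1.34 for replicates 1 and 2), Msx2 (−1.04 and −1.18) and Atoh8 (−2.15 and −2.98) had the same sign within each replicate number, and the part of the macrophage markers in their size was not tested.

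**Figure D4:**
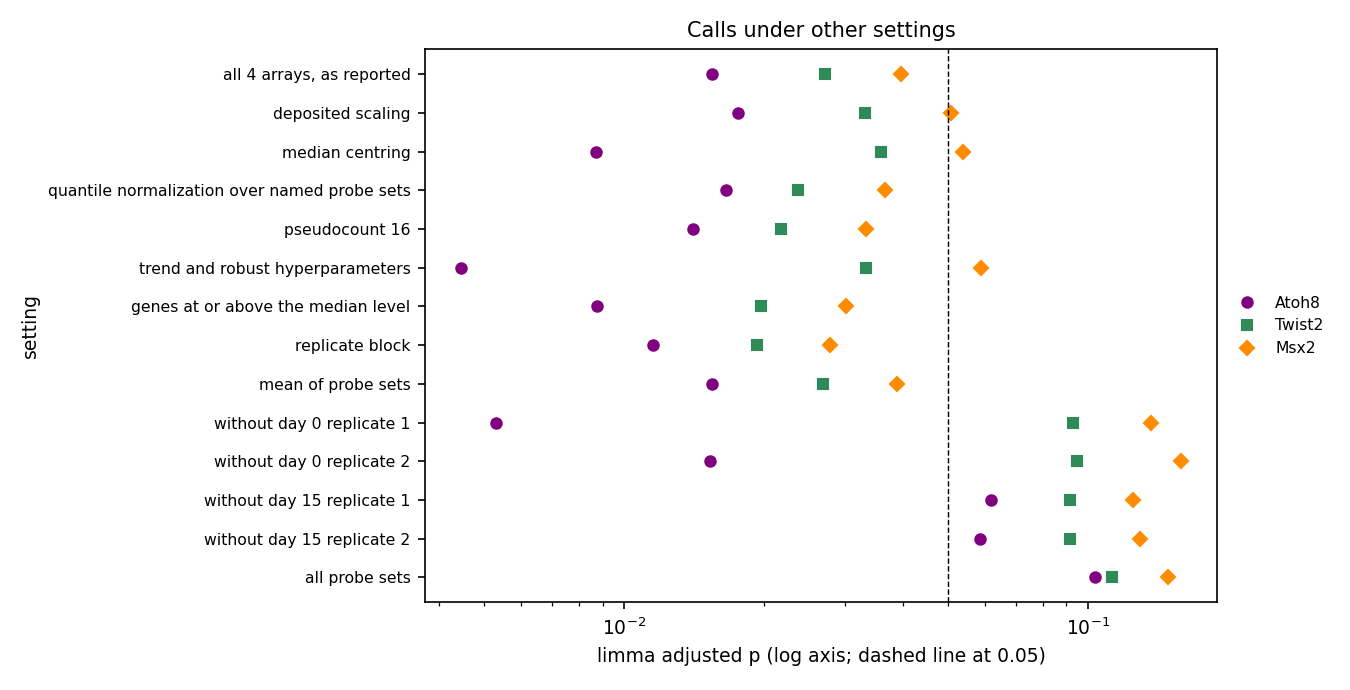
Limma adjusted p (horizontal log axis, dashed line at 0.05) of Atoh8 (circles), Twist2 (squares) and Msx2 (diamonds) under each setting (vertical axis). Twist2 and Msx2 lie right of the line whenever 1 array is left out, Msx2 also on the deposited scaling, with median centring and with the trend, Atoh8 does so without either day 15 array, and all 3 do so when all probe sets are tested together.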

How the data were processed

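Total RNA of 4 ATDC5 samples was labelled with biotin and hybridised to whole-transcript arrays of 1 colour, per the labels' protocols. The authors deposited 1 processed intensity per probe set and array, linear as judged from the values (0.72 to 23103). How background, probe summaries and scaling were handled is not given in the sources used here. The build was mm9 per the submitters' processing notes, so coordinates of GRCm38.p6 are printed only with its promoters.

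Of 35512 probe sets 21789 had 1 gene symbol, 1621 several and 12102 none listed. The brightest probe set per gene over the 4 arrays was kept, which gave 19938 genes, after log2 of intensity plus 1. Array medians differed by 0.20 log2, over the tolerance of 0.1, so all probe sets were quantile normalized. The days were compared in limma 3.58.1 under R 4.3.3 (lmFit, eBayes, with the day as term). The fit was also run on simulated data with independent arrays. Such data cannot show the effect of deviations shared by same-numbered arrays or of technical replication. The number of arrays limits the precision.

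The factors, lists and tests were chosen with earlier results of these data known. Named are all 9 factors, from each list up to 4 called genes with the largest difference (or the 2 largest where fewer than 2 were called), and the 3 nearest profiles of each called factor. Tcf3, Tcf4, Tcf12, Id2, Id4, Bhlhe40, Hey2, Hand1, Dlx6, Prrx2, Tbx3, Tnmd, Mkx, Comp, Col1a1, Sp7, Bambi, C1qb, En1, Dlx4, Shox2, Meis1, Meis2, Meis3, Irx5 and Adgre1 were named after their values were seen. Listed genes without a probe set of their own are not analysed here. Alternatives were other scalings, a pseudocount of 16, an intensity trend, a filter on level, a replicate block, the mean of probe sets, all probe sets and leaving out each array, and, chosen after seeing the data, leaving out genes higher in replicate 1 on both days. Figures were drawn with matplotlib 3.10.9.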

Additional observations from a re-analysis of the deposited data

How the results depend on the processing

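Atoh8, Twist2 and Msx2 stayed lower at day 15 under every alternative run, but their calls rest on few arrays. Several alternatives could change only the p of these factors, each with 1 probe set, and not their differences. These were the intensity trend, the filter on level, the replicate block, the mean of probe sets and the test of all probe sets. The differences could move only with the scaling, the pseudocount and the arrays used. Leaving out 1 array in turn gave 174 to 282 called genes in all (342 with all arrays), 0 to 1 called factors (3 with all), and differences of −2.94 to −2.19 log2 for Atoh8, −1.34 to −1.25 for Twist2 and −1.16 to −1.07 for Msx2; the remaining array of that day then takes its spread from the other day. Testing all probe sets together gave 74 calls in all and none of the 9 factors, at unchanged differences (−2.57 log2 and limma adjusted p = 0.104 for Atoh8, −1.29 and 0.113 for Twist2, −1.11 and 0.149 for Msx2). Msx2 missed the threshold at −1.05 log2 on the deposited scaling, −1.09 with median centring and −1.11 with an intensity trend, and the cause was not tested. Dlx5 was at 0.016 to 0.54 log2 without 1 array. Differences near 0 changed sign. Msx1 was at −0.00308 when only named probe sets were quantile normalized and −0.0229 to 0.152 without 1 array. Prrx1 was at −0.0101 with that normalization, −0.0431 with median centring and −0.108 to 0.112 without 1 array, and Hand2 at −0.239 to 0.0675 without 1 array. Msx1 and Hand2 fell under the filter on level and had no value there.

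Replicate numbers are shared between days in the labels, with nothing said of a common batch. Deviations of same-numbered arrays correlated at 0.40 across genes. With the replicate block 628 genes were called and the same 3 factors, and the lists held 2 called genes each for the other homeobox factors (Dlx1 and Dlx2, lower, limma adjusted p = 0.0454 and 0.0408), the tendon genes and the osteoblast genes. Leaving out genes higher in replicate 1 on both days gave 377 calls and could not change the factors' own differences. Counts per list without 1 array were 0 to 1 for the other bHLH and the other homeobox factors, 0 to 2 for the tendon and BMP response genes and 1 to 2 for the osteoblast genes. The filter on level gave 1 called gene each for the other bHLH and other homeobox factors, and the BMP response genes held 3 on the deposited scaling and 3 when only named probe sets were quantile normalized. No detection call or background signal was used, so dim levels such as those of Msx1, Hand2 and, at day 15, Hey1 may lie at background.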
